A study of Mus musculus with 20 samples.

Results

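The genes described here are the hypoxia-inducible factors and their regulators, in a study of mice whose regulatory T (Treg) cells lack the 5-methylcytosine dioxygenases TET2 and TET3. The 9 members were chosen by symbol: the factor subunits Hif1a, Epas1 (which encodes HIF-2α) and Arnt, the regulators Vhl, Egln1, Egln2 and Egln3, and the target genes Bnip3 and Vegfa. All 9 had a row in each of the raw count tables, among 16784 genes for the mesenteric lymph node (mLN) and 16740 genes for spleen pooled with peripheral lymph nodes (pLN). The 9 members all passed the filter of at least 1 read in a table, as did 16784 genes in mLN and 16357 in spleen/pLN.

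The mice were C57BL/6 animals, 14 weeks old. WT mice carried Foxp3 YFP-Cre alone, and DKO mice carried Tet2/3 fl/fl together with Foxp3Cre, so both genotypes shared the Cre allele. Cre was driven by Foxp3, hence by design it was active in Foxp3+ cells, and the CD4+Foxp3- cells of DKO mice were negative for it when sorted. That sort is not a sort of undeleted cells: it can hold former Treg cells, which expressed Foxp3 and Cre earlier and then lost them. Differences of DKO CD4+Foxp3- cells can therefore come from cells with and without the deletion, in a proportion not measured here. Treg cells (CD4+YFP+) and CD4+Foxp3- cells (CD4+YFP-) were sorted from each source, with 3 libraries a group in mLN and 2 libraries a group in spleen/pLN, 20 libraries in all. No label says which same-numbered libraries came from the same mouse, and the DKO mice of the spleen/pLN set were littermates that differed in how advanced their disease was. The counts of the tissue sources were given separately, and no label says whether they were sequenced together, so values are compared only within a source.

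HIF-1 and HIF-2 are heterodimers of an oxygen-regulated α subunit (Hif1a or Epas1) and the constitutive β subunit ARNT. In normal oxygen the EGLN prolyl hydroxylases mark the α subunits, the VHL ubiquitin ligase complex binds the hydroxylated protein and the proteasome removes it. In low oxygen, or after T cell receptor and mTOR signals, HIF-1α accumulates and raises genes of glycolysis, autophagy (Bnip3) and blood vessel growth (Vegfa), and also the hydroxylases Egln1 and Egln3 themselves. In T cells HIF-1α is known for its part in the switch to aerobic glycolysis. Since this control is mostly on the protein, a transcript level is not a measure of factor activity.

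The DNA that the factors read is the hypoxia response element, whose core is ACGTG or GCGTG. The promoters of Hif1a, Egln3 and Bnip3 are shown because Hif1a was called in 3 comparisons described below and because Egln3 and Bnip3 are textbook targets of its product. Each sequence is the 250 bases before the RefSeq transcription start (build GRCm38.p6), 5′ to 3′ on the strand of the gene, with every ACGTG or GCGTG on either strand in capitals (CACGT and CACGC are their reverse complements).
Hif1a, chr12:73907617-73907866, plus strand: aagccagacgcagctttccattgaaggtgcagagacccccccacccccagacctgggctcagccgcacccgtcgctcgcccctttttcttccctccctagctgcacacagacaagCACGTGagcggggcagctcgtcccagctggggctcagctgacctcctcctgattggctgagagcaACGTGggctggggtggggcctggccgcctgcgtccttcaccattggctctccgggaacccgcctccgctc
Egln3, chr12:54203875-54204124, minus strand: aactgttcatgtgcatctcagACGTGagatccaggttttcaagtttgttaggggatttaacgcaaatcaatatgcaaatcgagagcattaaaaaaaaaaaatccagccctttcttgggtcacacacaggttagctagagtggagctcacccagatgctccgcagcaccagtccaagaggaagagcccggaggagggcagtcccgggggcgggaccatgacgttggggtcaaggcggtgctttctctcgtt
Bnip3, chr7:138909507-138909756, minus strand: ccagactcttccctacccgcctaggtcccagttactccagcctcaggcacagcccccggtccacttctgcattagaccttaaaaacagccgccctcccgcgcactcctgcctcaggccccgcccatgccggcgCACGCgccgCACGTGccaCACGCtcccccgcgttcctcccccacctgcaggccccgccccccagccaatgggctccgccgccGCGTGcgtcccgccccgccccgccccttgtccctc
RefSeq promoters were matched for 8 of the 9 members, all but Epas1, 10 promoters in all. Of these 10 promoters 6 held ACGTG, 1 in each of 6 members, against 16.6% of the 32851 promoters of the table. GCGTG stood in 28.2% of all the promoters and either core in 38.6%. Of the 8 matched members 7 held either core, a count by member and not by promoter. The members' windows ranged from 48% to 86% in GC content, which was not matched in these shares. The Hif1a window held 3 matches to ACGTG, of which 2 are the overlapping strands of a CACGTG palindrome, and no GCGTG. The Egln3 window held 1 match to ACGTG. The Bnip3 window held 2 matches to ACGTG, again the strands of a CACGTG, and 3 matches to GCGTG. A match is a run of letters and not a measured binding site.

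Depth was even: libraries held 9998478 to 15449158 counted reads in mLN and 13525932 to 15253141 in spleen/pLN, so that 3 reads, used here as the floor of detection, were worth at most 0.299 CPM (read counts relative to library size, with TMM factors). Foxp3 marked the sorts, at 153 to 419 CPM in every Treg library and 0.211 to 2.75 CPM in every CD4+Foxp3- library. In spleen/pLN Treg cells it was at 153 to 165 CPM in WT against 235 to 419 CPM in DKO. The 5 Treg markers summed to 1878 to 2040 CPM in WT against 1480 to 1679 CPM in DKO mLN Treg cells. Il2ra was lower in every DKO library there (703 to 797 against 239.5 to 449.8 CPM), and the other markers overlapped. Tet2 and Tet3 were counted over the whole gene, which does not check the deletion (Tet3 in Treg cells: 69.0 to 86.5 CPM in WT against 48.4 to 73.3 CPM in DKO in mLN, and 30.6 to 31.0 against 38.1 to 61.0 CPM in spleen/pLN, where Tet2 was at 1.11 to 2.08 against 2.05 to 8.01 CPM). DKO libraries of 1 group differed more from each other than WT libraries did. In mLN CD4+Foxp3- cells, DKO replicate 1 lay nearest to the WT libraries, at a mean distance of 36.4 log2 units over the 500 most variable genes, against 77.4 and 57.7 for replicates 2 and 3. In spleen/pLN, replicate 1 of the DKO mice lay farther from WT than replicate 2 in Treg cells (60.1 against 45.9) and in CD4+Foxp3- cells (78.8 against 38.3). All of these are bulk libraries of sorted cells, in which fewer cells with a transcript and less of it per cell cannot be told apart.

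Hif1a transcripts were higher in DKO Treg cells of the mLN, in DKO CD4+Foxp3- cells of the mLN and, within WT mice, in Treg over CD4+Foxp3- cells. The gene (mm9, chr12:75002362-75048517, plus strand) encodes the α subunit of HIF-1. In mLN Treg cells its level was 499, 508 and 493 CPM in WT against 1368, 1218 and 1064 CPM in DKO. Every DKO library was above every WT library, a separation in either direction that 40.5% of all genes tested showed in this comparison, and the log2 fold change was 1.28 (SE 0.31, n = 3 per group), that is 2.43-fold. This contrast supplied results that led to the choice of the gene set, so its values are a description and no p-value is given.

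In mLN CD4+Foxp3- cells Hif1a was at 241, 262 and 235 CPM in WT against 279, 1032 and 693 CPM in DKO. The DKO libraries spread widely, with replicate 1 just above the WT range and replicates 2 and 3 far above it, in the same order as their distances from WT. Of all genes 20.9% had groups that did not overlap there. The log2 fold change was 1.44 (SE 0.31; edgeR adjusted p = 0.0234 over 16784 genes). The call was lost when any WT CD4+Foxp3- library was left out (adjusted p = 0.0935 to 0.109, log2 fold change 1.42 to 1.49), with only the groups compared in the fit (0.163), with a robust prior (0.0822) and on the TPM scale (0.164). The summed level of 5 Treg markers in these cells was 133 to 137 CPM in WT against 178 to 349 CPM in DKO, while Foxp3 itself stayed at or below 2.75 CPM. Myeloid markers summed to 51.0 to 55.0 CPM in WT and 53.9 to 112 CPM in DKO, stromal markers to 0.596 to 0.798 CPM and 1.06 to 8.73 CPM, and B cell markers to 2.39 to 2.70 CPM and 2.395 to 16.3 CPM. The part of these markers in the Hif1a difference was not tested.

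In spleen/pLN the Hif1a differences had the same sign and did not pass the test. Treg cells held 538 and 480 CPM in WT against 851 and 602 CPM in DKO. The groups did not overlap, as was so for 54.2% of all genes, and the log2 fold change was 0.51 (SE 0.43; edgeR adjusted p = 0.559, n = 2 per group). CD4+Foxp3- cells held 368 and 321 CPM in WT against 1406 and 361 CPM in DKO. Only the library of replicate 1, the one farther from WT over the 500 most variable genes, was high. Replicate 2 lay inside the WT range, whereas 41.9% of all genes had groups that did not overlap. The log2 fold change of 1.36 (SE 0.44; adjusted p = 0.185) became 0.06 without DKO replicate 1 and 2.03 (adjusted p = 1.28e-05) without DKO replicate 2. Treg markers summed to 199 to 220 CPM in these WT libraries and to 226 to 707 CPM in the DKO libraries. Myeloid markers (11 of 11) summed to 80.4 to 83.7 CPM and 99.2 to 127 CPM in the same libraries, stromal markers (6 of 8) to 0.241 to 0.608 CPM and 7.63 to 19.96 CPM, and B cell markers (5 of 5) to 3.54 to 3.57 CPM and 6.15 to 9.10 CPM. The part of these markers was not tested.

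Epas1 (chr17:87153247-87232750, plus strand), the α subunit of HIF-2, showed the opposite pattern in DKO Treg cells of the mLN. Its level there was 33.1, 44.9 and 37.4 CPM in WT, from 380 to 543 reads, and 2.52, 2.52 and 3.27 CPM in DKO, from 33 to 39 reads. The groups lay far apart, and the log2 fold change was -3.80 (SE 0.29), 13.9-fold lower in DKO. Ordered from the most negative, this stood at place 46 of the 16784 log2 fold changes. Epas1 was known from earlier results as a large decrease in this contrast, so these values describe how it was chosen and carry no p-value.

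Epas1 in mLN CD4+Foxp3- cells was at 31.4, 40.2 and 27.8 CPM in WT against 19.8, 9.99 and 22.8 CPM in DKO. All 3 DKO libraries were below the WT range, with the lowest level in replicate 2, the library with the most Hif1a. The log2 fold change of -0.93 (SE 0.24) missed the threshold (edgeR adjusted p = 0.0534). It passed with DESeq2 (adjusted p = 0.0155) and without DKO replicate 1 (-1.03, adjusted p = 0.0268) or replicate 3 (-1.17, adjusted p = 0.0317), and was -0.63 without replicate 2. The difference of the genotype effects, Treg minus CD4+Foxp3-, was -2.87 (SE 0.37) for Epas1, given as a description since it holds the contrast above. Of all genes 0.28% had an interaction past the adjusted p of 0.05, and of the members this was the case for 1, Epas1, from which nothing is read because the interaction holds the contrast used in choosing the members. The interaction of Hif1a was -0.16 (SE 0.43).

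In spleen/pLN Epas1 was a low transcript in Treg cells and higher in CD4+Foxp3- cells. Treg libraries held 3.30 and 2.09 CPM in WT, from 43 and 30 reads, and 1.202 and 0.887 CPM in DKO, from 21 and 13 reads. The groups did not overlap, but the log2 fold change of -1.35 (SE 0.45) did not pass the test (adjusted p = 0.125), and on the log2(TPM + 1) scale, which understates changes of low genes, it was -0.34. CD4+Foxp3- libraries held 9.65 and 11.1 CPM in WT against 4.39 and 9.93 CPM in DKO. The low DKO library was replicate 1, the same library that was high in Hif1a, and the log2 fold change was -0.54 (SE 0.39; adjusted p = 0.645). Without DKO replicate 2 it was -1.24 (adjusted p = 0.0241), and without replicate 1 it was -0.07.

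Endothelial cells express much Epas1, so their markers were read beside it. Of 10 endothelial markers 7 had a row in the mLN table. Their summed level in mLN Treg cells was 138 to 172 CPM in WT against 109 to 142 CPM in DKO, and in CD4+Foxp3- cells 234 to 253 CPM and 185 to 275 CPM. Nearly all of it was Pecam1, which T cells express too (138 to 171 CPM in WT Treg cells). Kdr and Tek had no read in any mLN Treg library, Plvap and Esam had none in WT Treg cells, and Cdh5 reached 0.0984 CPM in WT Treg cells and 0.287 CPM in DKO. Egfl7 was higher in DKO, at 0.993 to 1.73 CPM against 0 to 0.411 CPM in WT. In mLN CD4+Foxp3- cells Cdh5 was at 0.3375 to 0.681 CPM in WT against 0.0884 to 0.177 CPM in DKO, and the other markers overlapped. In spleen/pLN CD4+Foxp3- cells 9 of 10 markers summed to 144 to 148 CPM in WT against 80.55 to 134 CPM in DKO. Pecam1 was below WT in every DKO library there, while Cdh5, Plvap and Kdr were above (Kdr at 0 CPM in WT against 0.314 to 0.815 CPM in DKO). Myeloid markers, whose cells express Hif1a, summed to 61.4 to 76.5 CPM in WT against 94.9 to 126 CPM in DKO mLN Treg cells over 9 of 11 markers. Most of this was Cst3 (58.5 to 71.7 CPM in WT against 59.6 to 99.9 CPM in DKO), while Adgre1 stayed at or below 0.144 CPM and Csf1r at or below 0.216 CPM. Of the 9 myeloid markers 7 had positive log2 fold changes. All DKO libraries were above WT for Cd68 (1.18 to 1.57 CPM in WT against 6.25 to 10.8 CPM in DKO), Itgam (0.496 to 0.822 against 2.98 to 17.5 CPM) and Cd14 (no read in WT against 0.0764 to 1.29 CPM). Fcer1g overlapped, at or below 0.0822 CPM in WT and at 0.0719 to 36.8 CPM in DKO, where 1 library lay far above the other two, and Lyz2 leaned the other way, at 0.827 to 2.22 CPM in WT against 0.306 to 0.839 CPM in DKO, with overlap. Stromal markers (8 of 8) summed to 1.41 to 2.96 CPM in WT against 11.2 to 26.9 CPM in DKO, B cell markers (5 of 5) to 26.8 to 35.4 CPM and 8.81 to 20.8 CPM, and general CD4 T cell markers (5 of 5) to 3287 to 3770 CPM and 3221 to 3951 CPM. The stromal sum in DKO came from Pdgfrb (at most 0.197 CPM in WT against 1.73 to 10.8 CPM in DKO) and from single libraries of Dcn (0 to 24.1 CPM in DKO) and Pdgfra (0.216 to 6.34 CPM), neither of which had a read in WT, whereas Col1a2 was lower in DKO (1.24 to 2.30 CPM in WT against 0 to 0.229 CPM). The B cell sum was carried by Cd79b, at 26.4 to 34.2 CPM in WT against 5.45 to 16.4 CPM in DKO, while the other 4 had positive log2 fold changes, among them Pax5, with no read in WT and 0.216 to 2.29 CPM in DKO. The part of these markers in the differences of Hif1a and Epas1 was not tested.

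**Figure D1:**
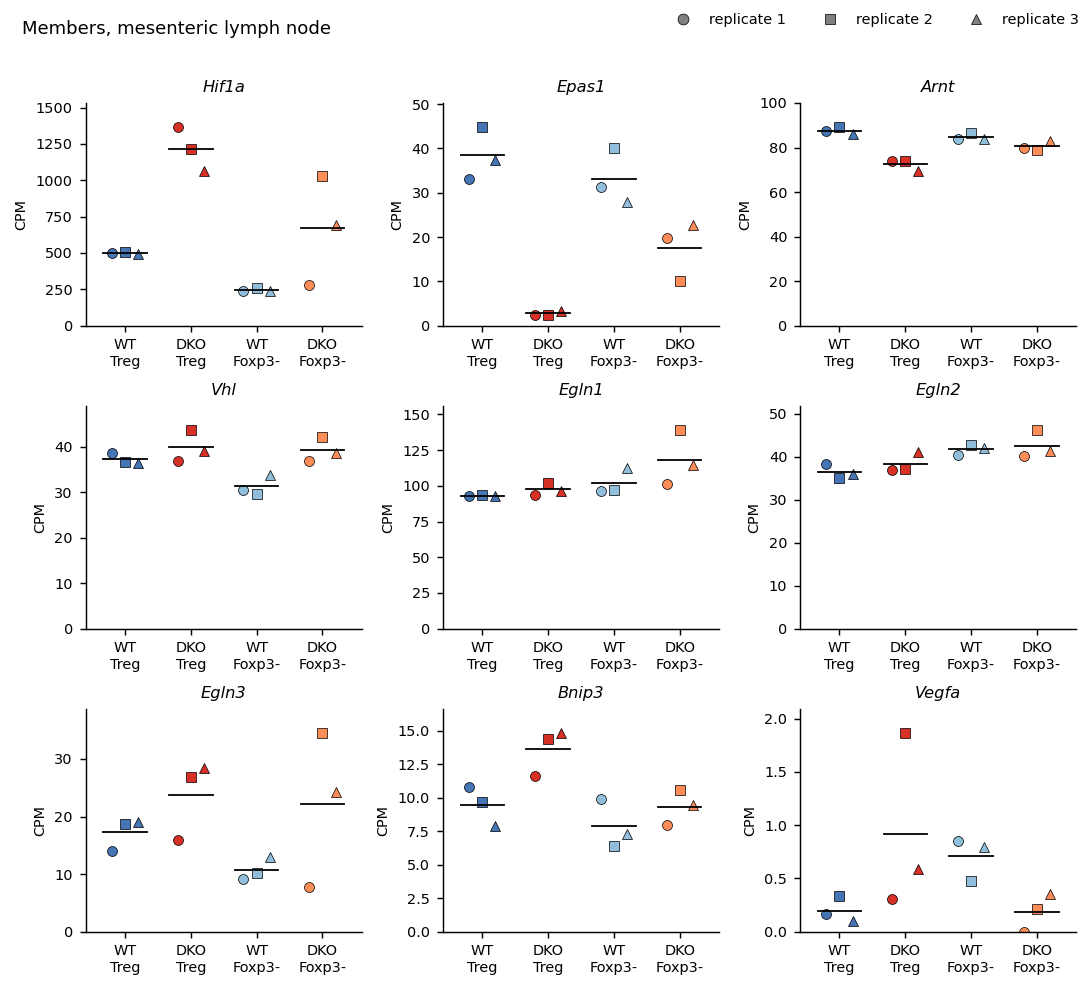
Level of each member in the 12 mLN libraries, in CPM on a linear axis from 0, by group along the x axis. Points are libraries with their replicate number as the symbol, and bars are group means. Hif1a was above and Epas1 below the WT range in every DKO Treg library. By smaller amounts, Egln1 and Bnip3 were also above it and Arnt below it. Among Arnt, Vhl, Egln1 and Egln2 the largest log2 fold change was 0.33, for Vhl in CD4+Foxp3- cells, where every DKO library was above WT.

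**Figure D2:**
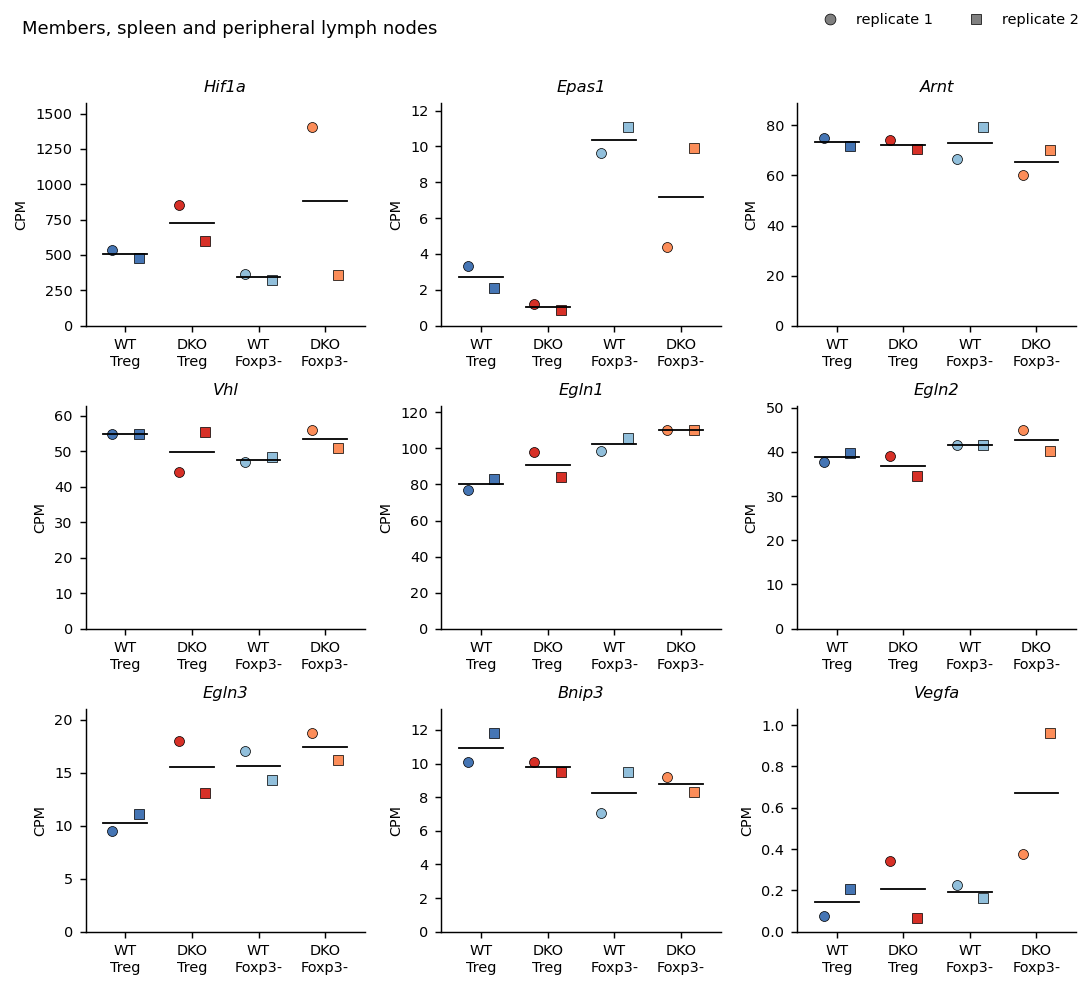
Level of each member in the 8 spleen/pLN libraries, in CPM on a linear axis from 0, drawn as for mLN. Hif1a was high and Epas1 low in replicate 1 of DKO CD4+Foxp3- cells, and replicate 2 lay inside or near the WT range.

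On the authors' TPM scale, which divides by gene length and so allows levels of different genes to be compared, Hif1a was the more abundant α subunit in all libraries. In mLN, Hif1a stood at 12.7 to 16.9 times the Epas1 TPM in WT Treg cells and at 7.33 to 9.51 times in WT CD4+Foxp3- cells. The ratio was 366 to 610 in DKO Treg cells, with Hif1a at 457 to 615 TPM and Epas1 at 0.939 to 1.25 TPM. In DKO CD4+Foxp3- cells of the mLN it was 15.9, 116 and 34.2. In spleen/pLN the ratio was 183 and 258 in WT Treg cells, 796 and 762 in DKO Treg cells, 42.9 and 32.5 in WT CD4+Foxp3- cells, and 360 and 40.8 in DKO CD4+Foxp3- cells.

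**Figure D3:**
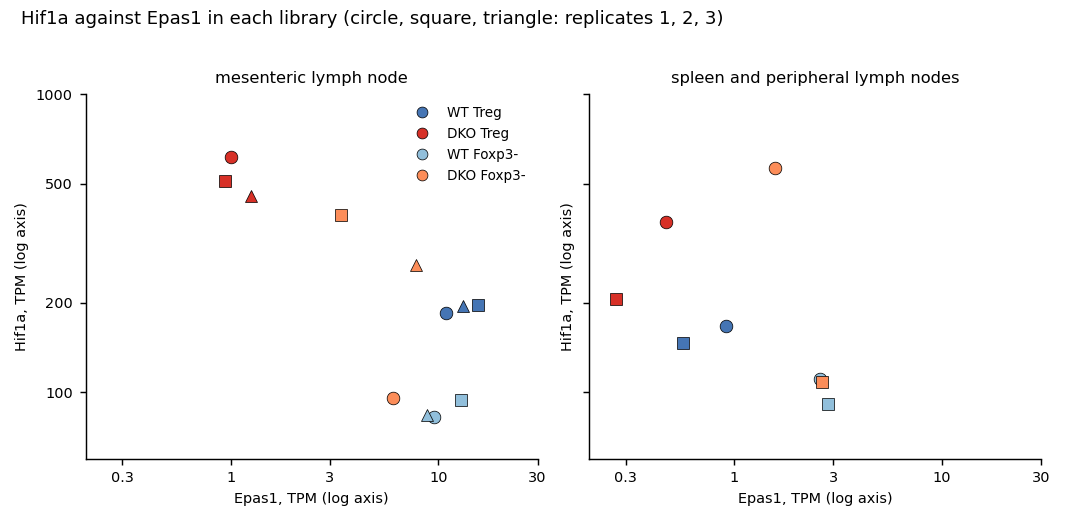
Hif1a against Epas1 in each library, both as the authors' TPM on log axes, mLN on the left and spleen/pLN on the right, with colours for the groups and symbols for the replicates. The DKO Treg libraries of the mLN lie at the upper left, with Hif1a from 457 to 615 TPM and Epas1 from 0.939 to 1.25 TPM.

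Arnt, the shared β subunit (chr3:95238310-95301162, plus strand), was a steadier transcript. In mLN Treg cells it was at 87.4, 89.3 and 86.2 CPM in WT against 74.2, 74.1 and 69.5 CPM in DKO. The DKO libraries were all lower, by a log2 fold change of -0.27 (SE 0.07), which is under the 1.5-fold minimum, and on the TPM scale the groups overlapped (35.3 to 37.5 TPM in WT and 32.5 to 36.3 TPM in DKO). In all other libraries Arnt lay between 60.1 and 86.7 CPM, with log2 fold changes of DKO over WT of -0.07 (adjusted p = 0.593) in mLN CD4+Foxp3- cells, -0.02 (adjusted p = 0.993) in spleen/pLN Treg cells and -0.16 (adjusted p = 0.752) in spleen/pLN CD4+Foxp3- cells, where it was 0.08 on the log2(TPM + 1) scale.

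Vhl (chr6:113573953-113581627, plus strand) encodes the subunit that recognizes the hydroxylated α subunit. Its level in mLN CD4+Foxp3- cells was 30.5, 29.6 and 33.7 CPM in WT against 36.9, 42.0 and 38.6 CPM in DKO. The groups did not overlap, and the log2 fold change of 0.33 (SE 0.09) missed the threshold (edgeR adjusted p = 0.0738). In mLN Treg cells it was at 38.6, 36.6 and 36.5 CPM in WT against 36.9, 43.7 and 38.9 CPM in DKO, with overlapping groups. In spleen/pLN it was 54.8 and 54.9 CPM in WT Treg, 44.1 and 55.4 CPM in DKO Treg, 46.9 and 48.3 CPM in WT CD4+Foxp3- and 56.1 and 51.1 CPM in DKO CD4+Foxp3- cells, with adjusted p of 0.676 and 0.74 for the effect of genotype.

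The 3 prolyl hydroxylases differed in how much they varied. Egln1 (PHD2, chr8:127432496-127473154, minus strand), the main oxygen sensor, was at 93.1 to 93.5 CPM in WT against 93.7 to 102 CPM in DKO mLN Treg cells. CD4+Foxp3- cells of the mLN held 96.6, 97.2 and 113 CPM in WT against 101, 139 and 115 CPM in DKO, a log2 fold change of 0.21 (SE 0.11; adjusted p = 0.3). In spleen/pLN Egln1 was at 77.0 and 83.2 CPM in WT against 97.9 and 84.2 CPM in DKO Treg cells, and at 98.6 and 105.9 CPM against 110.4 and 110.2 CPM in CD4+Foxp3- cells. The DKO libraries lay above WT in both, and neither difference passed the test, with log2 fold changes of 0.18 (SE 0.15; adjusted p = 0.532) and 0.11 (SE 0.15; adjusted p = 0.802), or 0.50 (adjusted p = 0.328) and 0.35 (adjusted p = 0.612) by limma on the log2(TPM + 1) scale. Egln2 (PHD1, chr7:27943677-27951821, minus strand) stayed between 34.6 and 46.3 CPM in all 20 libraries, and its genotype effects, outside the mLN Treg contrast, had adjusted p of 0.83 to 1.

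Egln3 (PHD3, chr12:55279968-55304847, minus strand), which like Egln1 is known to be induced by HIF-1, was the variable one. In mLN CD4+Foxp3- cells it was at 9.19, 10.1 and 12.97 CPM in WT against 7.81, 34.6 and 24.2 CPM in DKO. Replicates 2 and 3 were above and replicate 1 was below all WT libraries. The log2 fold change of 1.06 (SE 0.39) did not pass the test (adjusted p = 0.164), and without DKO replicate 1 it was 1.46 (adjusted p = 0.00197), whereas without DKO replicate 2 it was 0.59. In mLN Treg cells Egln3 was at 14.0, 18.8 and 19.1 CPM in WT against 15.96, 26.9 and 28.4 CPM in DKO, a log2 fold change of 0.46 (SE 0.38) with overlapping groups. In spleen/pLN Treg cells it was at 9.45 and 11.1 CPM in WT against 17.97 and 13.1 CPM in DKO, a log2 fold change of 0.60 (SE 0.23; adjusted p = 0.163) with no overlap. In spleen/pLN CD4+Foxp3- cells it was at 17.0 and 14.3 CPM in WT against 18.8 and 16.2 CPM in DKO (log2 fold change 0.16, adjusted p = 0.819).

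Of the target genes among the members, Bnip3 (chr7:146082519-146101202, minus strand), which encodes a mitochondrial receptor for autophagy, was at 10.8, 9.68 and 7.87 CPM in WT against 11.6, 14.4 and 14.8 CPM in DKO mLN Treg cells. All DKO libraries were above WT, with a log2 fold change of 0.53 (SE 0.19), just under 1.5-fold. On the log2(TPM + 1) scale it was 0.65 (SE 0.17), past the 1.5-fold minimum, and Bnip3 was called there. CD4+Foxp3- cells of the mLN held 9.87, 6.41 and 7.28 CPM in WT against 7.98, 10.6 and 9.46 CPM in DKO (log2 fold change 0.25, adjusted p = 0.54), with overlap. In spleen/pLN it lay between 7.06 and 11.8 CPM in all libraries, with adjusted p of 0.733 in Treg and 0.965 in CD4+Foxp3- cells.

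Vegfa (chr17:46153942-46169326, minus strand), the vessel growth factor, was hardly transcribed. The mLN libraries held 2, 4 and 1 reads in WT Treg, 4, 26 and 7 reads in DKO Treg, 10, 7 and 8 reads in WT CD4+Foxp3- and 0, 3 and 4 reads in DKO CD4+Foxp3- cells. The spleen/pLN libraries held 1 and 3 reads in WT Treg, 6 and 1 reads in DKO Treg, 3 and 2 reads in WT CD4+Foxp3- and 6 and 13 reads in DKO CD4+Foxp3- cells. Its highest level, 1.87 CPM, was in 1 DKO Treg library of the mLN. No Vegfa difference passed the test in the comparisons tested (adjusted p = 0.27 and 0.539 for CD4+Foxp3- cells of mLN and spleen/pLN), and depth limits what could be seen at these counts.

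**Figure D4:**
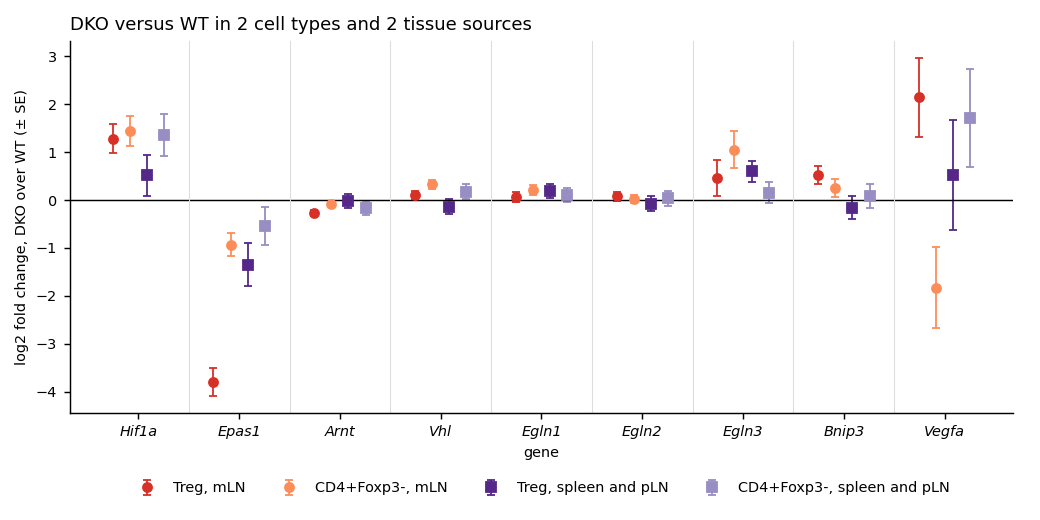
log2 fold change of DKO over WT for each member, with its standard error, in Treg and CD4+Foxp3- cells of mLN and spleen/pLN, from the edgeR fit of each source. Hif1a lay above 0 and Epas1 below 0 in all 4 comparisons, Arnt, Vhl, Egln1 and Egln2 lay within 0.33 of 0, and Vegfa has wide errors since it rests on few reads.

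Counted over the members, 1 was called higher and 1 lower in DKO than in WT mLN Treg cells, where a call needs an adjusted p no higher than 0.05 and a change no smaller than 1.5-fold. Of all genes tested 8.5% were called higher and 3.43% lower there, and nothing is read from the members' count because this contrast was used in choosing them. Of the 9 members 1 was called higher (Hif1a) and 0 lower in mLN CD4+Foxp3- cells, where 3.12% of all genes were called higher and 0.304% lower. In spleen/pLN edgeR called 0 of 9 in Treg cells, with 2 members (Epas1 and Egln3) at an unadjusted p under 0.05, beside 20.4% of all genes (3345 of 16357), and 0 of 9 in CD4+Foxp3- cells, with 1 (Hif1a) at such a p, beside 12.9% (2102 of 16357). DESeq2 also called 0 in each. The share of all genes called there was 1.14% higher and 0.605% lower in Treg cells, and 0.77% higher and 0.0489% lower in CD4+Foxp3- cells. The interaction in spleen/pLN was called for 0 members, with 0 at an unadjusted p under 0.05 and 0 by DESeq2, and for 0.00611% of all genes. The median log2 fold change over the 9 members was 0.10 in mLN Treg, 0.21 in mLN CD4+Foxp3-, -0.02 in spleen/pLN Treg and 0.11 in spleen/pLN CD4+Foxp3- cells, beside medians over all genes between 0 and 0.02.

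Within WT mice 1 α subunit was called between the sorted cells in each source, Hif1a in mLN and Epas1 in spleen/pLN, and the difference between the sources was not tested. In mLN, Hif1a was higher in Treg than in CD4+Foxp3- cells by a log2 fold change of 1.02 (SE 0.31; edgeR adjusted p = 0.0403), and the 3 libraries of each group, given above, did not overlap, beside 41.5% of all genes. With same-numbered libraries taken as pairs in a replicate block, this became 1.02 with an adjusted p of 0.0512, so the call was lost, as it was when any of the 6 libraries was left out (adjusted p = 0.0941 to 0.121). Epas1 in mLN was higher in Treg cells in 3 of 3 same-numbered pairs, and the difference did not pass the test (log2 fold change 0.21, SE 0.24, adjusted p = 0.616; with the replicate block 0.22, adjusted p = 0.379). In spleen/pLN it was lower in Treg cells by a log2 fold change of -1.94 (SE 0.41; adjusted p = 0.0198), 3.85-fold. That call was lost when any of the 4 libraries was left out (adjusted p = 0.138 to 0.326), with filterByExpr (0.0688) and on the TPM scale (0.0963). Hif1a in spleen/pLN was higher in Treg cells by 0.56 (SE 0.44; adjusted p = 0.708), with no overlap, beside 55.3% of all genes. Egln3 was higher in Treg cells in mLN by 0.69 (SE 0.40; adjusted p = 0.304) and lower in spleen/pLN (-0.61, SE 0.23; adjusted p = 0.218), and neither passed the test. Of the 9 members 1 was called in each source by the fit without a block, and 0 in each with the replicate block. Without a block 6.91% of all genes were called higher and 3.14% lower in mLN, and 2.48% higher and 1.52% lower in spleen/pLN. These comparisons share the WT libraries with the comparisons of genotype.

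The members spanned a wide range of levels. In WT mLN Treg cells the mean TPM was 192 ± 5.96 (SD, n = 3) for Hif1a, 48.3 ± 1.501 for Egln1, 36.6 ± 1.19 for Arnt, 31.5 ± 0.899 for Egln2, 24.9 ± 0.249 for Vhl, 13.1 ± 2.25 for Epas1, 11.8 ± 2.28 for Egln3, 9.78 ± 1.24 for Bnip3 and 0.0864 ± 0.0528 for Vegfa. The libraries of Epas1 and Egln3 overlapped, as did those of Egln3 and Bnip3, and the other neighbours in this order did not. In DKO mLN Treg cells Hif1a led at 528 ± 80.6, followed by Egln1 at 57.0 ± 1.01, Egln2 at 37.6 ± 2.27, Arnt at 34.3 ± 1.94, Vhl at 30.02 ± 1.71, Egln3 at 18.2 ± 4.76 and Bnip3 at 15.9 ± 1.60, with Epas1 at 1.07 ± 0.163 next to last before Vegfa at 0.446 ± 0.394. Egln2 and Arnt overlapped there, as did Egln3 and Bnip3. In spleen/pLN the order in WT Treg cells was Hif1a (157 ± 14.8, n = 2), Egln1 (33.3 ± 1.39), Vhl (29.4 ± 0.346), Egln2 (27.0 ± 0.625), Arnt (24.6 ± 1.10), Bnip3 (9.13 ± 0.920), Egln3 (5.61 ± 0.550), Epas1 (0.740 ± 0.245) and Vegfa (0.0499 ± 0.0321), with no overlap between neighbours. In WT CD4+Foxp3- cells of the mLN the order was Hif1a (86.7 ± 6.24, n = 3), Egln1 (48.6 ± 4.90), Egln2 (33.2 ± 1.78), Arnt (32.5 ± 1.29), Vhl (19.2 ± 1.49), Epas1 (10.4 ± 2.13), Bnip3 (7.47 ± 1.52), Egln3 (6.75 ± 1.33) and Vegfa (0.283 ± 0.0780), where Egln2 overlapped with Arnt, and Bnip3 with both Epas1 and Egln3.

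TPM and CPM place the genotypes differently. Over 7448 mLN genes averaging 10 TPM or more, the median log2 change of DKO over WT Treg cells was 0.13 on the log2(TPM + 1) scale and -0.04 on the CPM scale, and over 6753 spleen/pLN genes it was 0.22 and -0.10. In spleen/pLN Treg cells Arnt, Vhl, Egln2 and Bnip3 had fitted values below 0 on the CPM scale (-0.02, -0.14, -0.07 and -0.16) and above 0 on the TPM scale (0.30, 0.18, 0.25 and 0.16), so no direction is given for them. Hif1a and Epas1 kept their signs on the TPM scale in all 4 comparisons of genotype.

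Further genes of the pathway were followed in 4 lists that hold 79 genes: 20 regulators of the factors, 20 target genes of glucose use, 30 other target genes and 9 VEGF ligands and receptors. In mLN 78 were tested. In mLN Treg cells 17 were called higher and 2 lower in DKO, beside the 8.5% and 3.43% of all genes given above. By list this was 3 higher and 1 lower of 20 regulators, 6 higher and 0 lower of 20 glucose genes, 7 higher and 0 lower of 29 other targets, and 1 higher and 1 lower of 9 VEGF genes. The medians of the lists were 0.01, 0.38, 0.29 and 0 on the log2 scale, beside 0.00453 over all genes. This is the contrast from which the gene set was taken, so the values that follow are given without a p. Without WT Treg replicate 2 the count of pathway genes called was 12 instead of 19.

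Among regulators, Arnt2, a paralog of Arnt, was at 17.3 ± 1.60 CPM in WT against 54.7 ± 16.9 CPM in DKO mLN Treg cells (SD, n = 3), a log2 fold change of 1.66 (SE 0.23). Cited2, which competes with HIF-1α for the coactivators CBP and p300, was higher by 0.65 (SE 0.18), and Siah2, a ubiquitin ligase for EGLN proteins, by 0.63 (SE 0.19). The lower gene was Hif3a, another α subunit, at 5.53 CPM in WT against 1.55 CPM in DKO. Among glucose genes the lactate exporter Slc16a3 (10.2 ± 1.37 to 39.1 ± 16.6 CPM, log2 fold change 1.94, SE 0.47), the glycolytic enzyme Tpi1 (113 ± 1.54 to 356 ± 95.3 CPM, 1.65, SE 0.28) and hexokinase 2, Hk2 (5.94 ± 0.612 to 16.2 ± 3.38 CPM, 1.45, SE 0.27) were the highest, and Pgam1, Pfkl and Pfkfb4 were also called. Among other targets these were the transcriptional repressor Bhlhe40 (74.8 ± 1.83 to 336 ± 142 CPM, 2.17, SE 0.39), the collagen lysyl hydroxylase Plod2 (1.57, SE 0.25) and the chemokine receptor Cxcr4 (0.96, SE 0.21). Ak4, Tfrc and Hmox1 were among the other targets called. Nrp1, the VEGF coreceptor that also marks thymic Treg cells, was lower, at 332 ± 20.8 CPM in WT against 104 ± 9.87 CPM in DKO (-1.68, SE 0.19), and the lymphatic ligand Vegfc was higher at a low level (0.395 to 4.27 CPM).

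In mLN CD4+Foxp3- cells 10 of the 78 were called higher and 0 lower in DKO, beside 3.12% and 0.304% of all genes: 1 of 20 regulators, 3 of 20 glucose genes, 4 of 29 other targets and 2 of 9 VEGF genes. The medians were 0.01, 0.18, 0.12 and 0.05, beside 0 over all genes. Bhlhe40 rose from 15.6 ± 0.23 to 110 ± 63.2 CPM (log2 fold change 2.82, SE 0.41; edgeR adjusted p = 0.0049), Nt5e, the ecto-enzyme CD73, from 90.2 ± 14.9 to 232 ± 117 CPM (1.36, SE 0.32; adjusted p = 0.0345), Tpi1 from 73.7 ± 3.11 to 173 ± 79.3 CPM (1.23, SE 0.28; adjusted p = 0.0279) and Pgam1 from 104 ± 3.69 to 165 ± 41.9 CPM (0.67, SE 0.16; adjusted p = 0.0361). Nrp1 rose here, from 24.5 ± 1.51 to 46.4 ± 17.95 CPM (0.92, SE 0.20; adjusted p = 0.0234). Arnt2, Hk2, Plod2, Stc2 and Vegfc were the other genes called. The count rested on single libraries: it was 17 without DKO replicate 1, 4 without DKO replicate 2, 5 without DKO replicate 3 and 2 without any 1 of the WT libraries, and it was 0 when the fit held only the groups compared.

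In spleen/pLN, where 77 were tested, 2 genes were called higher and 1 lower in DKO Treg cells, beside 1.14% and 0.605% of all genes. Arnt2 was at 14.2 ± 2.23 CPM in WT against 83.8 ± 54.7 CPM in DKO (SD, n = 2; log2 fold change 2.57, SE 0.46; adjusted p = 0.0206), Vegfc at 1.32 ± 0.196 and 14.9 ± 4.14 CPM (3.49, SE 0.57; adjusted p = 0.0151), and Nrp1 at 423 ± 77.7 and 179 ± 31.5 CPM (-1.24, SE 0.27; adjusted p = 0.0424). Markers of other cells also differed in these Treg libraries. The myeloid sum (11 of 11) was 112 to 116 CPM in WT against 111 to 112 CPM in DKO, with Cst3 lower in DKO (107 to 113 against 76.1 to 98.8 CPM) but 8 of the 11 markers above WT in every DKO library, of which Itgam (0.999 to 1.32 against 6.485 to 15.5 CPM) and Csf1r (0.0696 to 0.0769 against 0.888 to 2.98 CPM) were called. Of the 5 B cell markers Ms4a1 was called higher (0.0769 to 0.209 against 1.16 to 5.72 CPM) and Cd79b lower (26.2 to 28.8 against 5.27 to 7.65 CPM). Endothelial markers (9 of 10) summed to 88.2 to 91.6 CPM in WT against 104 to 110 CPM in DKO, and stromal markers to 1.53 to 1.61 CPM against 1.23 to 1.89 CPM. The part of these markers in the differences of the members and the pathway genes was not tested. The count of 3 was 0 without either WT library or without DKO replicate 1, and 13 without DKO replicate 2. In spleen/pLN CD4+Foxp3- cells 1 gene was called, Vegfc, which had no read in the WT libraries and a mean of 1.32 CPM in DKO, beside 0.77% of all genes called higher and 0.0489% lower. That count was 22 without DKO replicate 2 and 0 without any 1 of the other 3 libraries. Within WT mice 10 of 78 pathway genes were called higher and 3 lower in Treg than in CD4+Foxp3- cells of the mLN, beside 6.91% and 3.14% of all genes, and 3 of 77 higher and 0 lower in spleen/pLN, beside 2.48% and 1.52%.

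**Figure D5:**
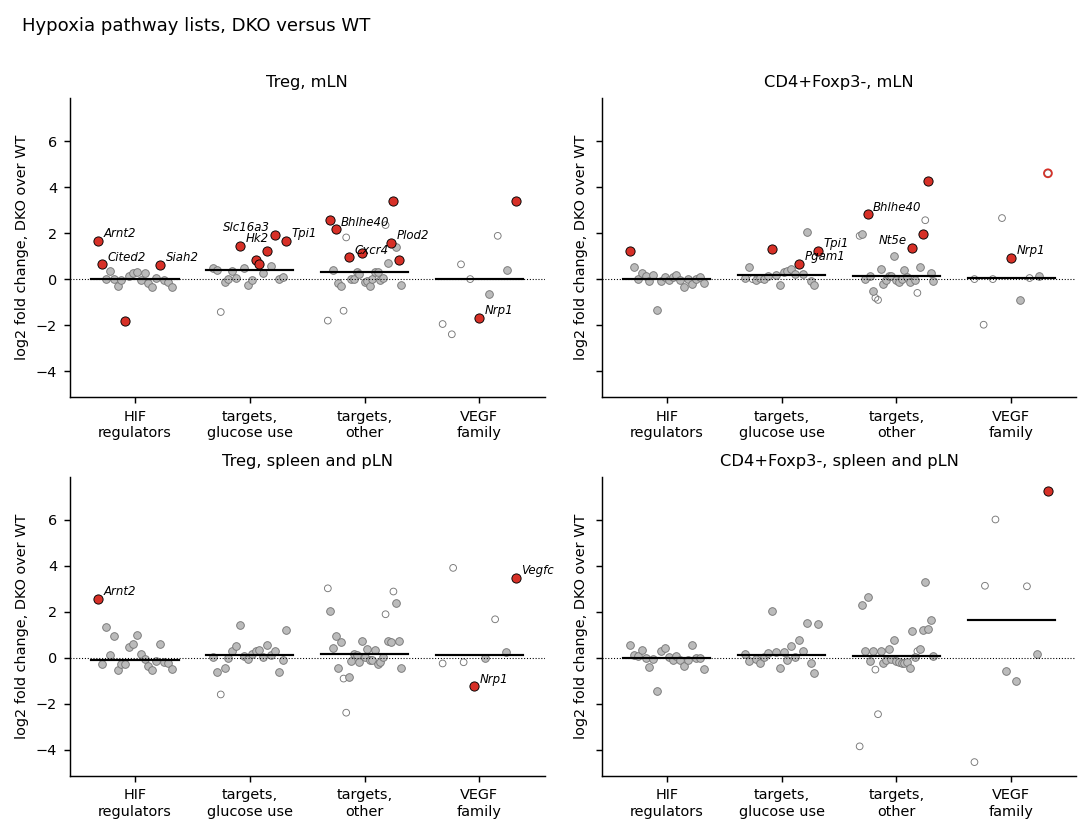
log2 fold change of DKO over WT for each gene of the 4 pathway lists, in 4 panels for cell type and source. Red points were called, grey points were not, open points, outlined in red where called, are genes under 1 CPM on average in both groups (fitted values at such counts depend on the prior count), lines are list medians, and the labelled genes are those named by the rule of at least 10 CPM. Most called genes lie above 0 in the mLN panels, and Nrp1 lies below 0 in both Treg panels. Over all genes calls in mLN also leaned higher, at 8.5% higher and 3.43% lower in Treg and 3.12% and 0.304% in CD4+Foxp3- cells.

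The genes whose pattern over the 12 mLN libraries was most like that of Epas1, by Pearson r of log2 CPM among 8984 genes with a group mean of at least 10 CPM, were Pde2a (r = 0.984), Synj1 (0.976), Leprotl1 (0.975), Isoc1 (0.972) and Naa30 (0.972). Over the 8 spleen/pLN libraries their r with Epas1 was 0.771, 0.423, 0.485, 0.328 and 0.438. For Hif1a they were Dusp16 (r = 0.99), Gas2l1 (0.989), Eea1 (0.988), Dab2ip (0.987) and Tmem2 (0.985), and over the spleen/pLN libraries their r with Hif1a was 0.962, 0.932, 0.916, 0.862 and 0.935. The genes most like Hif1a in mLN thus kept an r of at least 0.862 in the other source, while those most like Epas1 ranged from 0.328 to 0.771. In spleen/pLN Epas1 was at only 0.887 to 11.1 CPM, from 13 to 138 reads, and Hif1a at 321 to 1406 CPM. The part of this difference in level was not tested. The libraries fall into 4 groups, which all these genes share, and r is given as a description.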

How the data were processed

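RNA-seq libraries (TruSeq stranded mRNA, single-end reads) were aligned by the authors to mm9 with TopHat2 2.1.1, set to a maximum of 1 hit per read, and counted per RefSeq gene by strand with featureCounts (Subread 1.4.3-p1), as stated in the methods and the submitters' processing notes. The deposited raw count tables hold unnormalized counts, and the deposited TPM tables hold values the authors scaled by gene length (how is not given in the sources used here). No member shared exons on its strand with another gene of the GENCODE M1 annotation. Depth was 9998478 to 15449158 counts a library.

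Counts of each source were fitted on their own with edgeR 4.0.16 (R 4.3.3; TMM, quasi-likelihood test, all 4 groups in 1 fit, genes with at least 1 count, no replicate block). Genes were called where the p, adjusted over all genes by Benjamini-Hochberg, was no higher than 0.05 and the change 1.5-fold or more, interactions at the adjusted p alone. An SE is the log2 fold change over the root of its F. Standard deviations and p-values measure the spread between these libraries, whose separate origin in mice is given by number only. The scripts were tested on simulated data.

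Members and lists were chosen with earlier results of these data known. Named pathway genes are, per list and comparison of genotype, up to 3 called genes with the largest fold and a mean of 10 CPM or more in 1 of the groups, and the likeness genes are the 5 with the highest r. Alternatives were DESeq2 1.42.0 and its size factors, filterByExpr, fits of the groups compared alone, a robust prior, a replicate block, leaving out each library, and limma 3.58.1 on log2(TPM + 1), the last added after the values were seen. Same-numbered Treg and CD4+Foxp3- libraries of the mLN deviated together from their group means (r = 0.348 to 0.425 in WT and 0.138 to 0.544 in DKO over all 6 pairs). These numbers were therefore taken as pairs in the replicate block of the comparison of cell types. The main fit, which gives the calls, held no block and did not use the pairs.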

Additional observations from a re-analysis of the deposited data

Results flagged for a closer look

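The effect of genotype on Epas1 differed between the cell types of the mLN, by a log2 difference of -2.87 (SE 0.37), Treg minus CD4+Foxp3-. Its DKO Treg libraries were at 2.52, 2.52 and 3.27 CPM and its DKO CD4+Foxp3- libraries at 19.8, 9.99 and 22.8 CPM. The gene was chosen from the Treg contrast, so no p is given. The value was -1.97 to -3.19 over the 18 alternatives run.

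For Vegfa in CD4+Foxp3- cells, all DKO libraries of the mLN were below all WT libraries and all DKO libraries of spleen/pLN were above all WT libraries, with log2 fold changes of -1.83 and 1.72. The difference between the sources was not tested, and the values rest on 0 to 10 reads a library in mLN and 2 to 13 reads in spleen/pLN.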

How the results depend on the processing

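In mLN Treg cells the log2 fold changes were -3.93 to -2.77 for Epas1 and 1.19 to 1.44 for Hif1a over 13 alternatives, given as a description since that contrast was used in choosing the members. With DESeq2 the members called in mLN CD4+Foxp3- cells were 2 instead of 1, and the pathway genes called were 6 instead of 3 in spleen/pLN Treg, 3 instead of 1 in spleen/pLN CD4+Foxp3- and 5 instead of 3 in the comparison of WT cells in spleen/pLN. With only the groups compared, the members called were 0 in mLN CD4+Foxp3- and 3 and 2 for the WT cell types of mLN and spleen/pLN, and the pathway genes called were 0 in mLN CD4+Foxp3-, 12 in spleen/pLN Treg, 0 in spleen/pLN CD4+Foxp3- and 19 for the WT cells of spleen/pLN. With a robust prior, members called were 0 in mLN CD4+Foxp3- and 0 for the WT cells of mLN, and pathway genes 5 in mLN CD4+Foxp3-, 0 in spleen/pLN Treg, 0 in spleen/pLN CD4+Foxp3- and 1 for the WT cells of spleen/pLN. With filterByExpr the pathway genes called in spleen/pLN were 0 in Treg, 0 in CD4+Foxp3- and 1 between the WT cells, and the members between the WT cells 0. With the replicate block, the members called between the WT cells were 0 in mLN and 0 in spleen/pLN, and the pathway genes 0 in spleen/pLN CD4+Foxp3- and 1 between the WT cells of spleen/pLN. In spleen/pLN, and between genotypes, the libraries share only a number (r of deviations 0.319 and 0.309 in the 2 pairs of cell types of spleen/pLN). Under the block Epas1 between the WT cells of spleen/pLN was -1.96 (adjusted p = 0.102). No other count of calls moved by over 1.5 times under the block. The cause of these changes was not tested.

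Leaving out 1 library at a time, the members called ranged from 2 to 3 in mLN Treg, 0 to 3 in mLN CD4+Foxp3-, 0 to 0 between the WT cells of mLN and of spleen/pLN, and 0 to 2 in spleen/pLN CD4+Foxp3-. The members with an interaction ranged from 0 to 1 in spleen/pLN, where the 1 was Hif1a without DKO CD4+Foxp3- replicate 2 (-1.52, adjusted p = 0.00486). The pathway genes called ranged from 12 to 19 in mLN Treg, 2 to 17 in mLN CD4+Foxp3-, 0 to 13 in spleen/pLN Treg, 0 to 22 in spleen/pLN CD4+Foxp3- and 0 to 1 between the WT cells of spleen/pLN. A fit without 1 of 2 libraries assumes that the lone library varies like the other groups. The coefficient of variation between libraries was 21.6% in spleen/pLN, with 2 libraries a group, and 17.7% in mLN, and Vegfa held 0 to 26 reads, which limits what could be seen for it.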
